A study of Macaca fascicularis with 7 samples.

Results

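Messenger RNA of the nuclear pore, the nuclear lamina and the nuclear transport machinery was followed in cynomolgus monkey (Macaca fascicularis) oocytes before and after meiotic maturation. The rule for members reads gene symbols and no measured value, though the topic was chosen with earlier results of these data known. Members are all rows whose symbol starts with NUP, KPNA or IPO and a number, or with XPO and a number or T, together with KPNB1, TNPO1, TNPO2, RAN, RCC1, RANBP2, TPR, LMNA, LMNB1 and LMNB2. This gave 51 of the 28161 usable gene rows. They comprise 23 nucleoporins, 23 transport receptors (7 importin alpha, 10 importin beta family and 6 exportin genes), 2 genes of the Ran cycle and 3 lamins. All 51 passed the filter on low counts and were among the 16374 genes tested. Pore genes whose symbol does not carry the NUP prefix and a number, such as SEH1L, fall outside the rule and are described at the end.

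The series compares oocytes that reached metaphase II (MII) in culture (in vitro matured, IVM MII, 3 libraries), oocytes that reached MII in the animal (in vivo matured, IVO MII, 2 libraries) and immature oocytes at the germinal vesicle stage (GV, 2 libraries), to ask how their gene expression differs. All animals were labelled wild type; the IVM MII oocytes carry the label treated, and the IVO MII and GV oocytes the label control, with no agent named. Libraries are numbered within each group, as in IVM MII 1. The labels give no age of the animals, no number of oocytes in a library and no statement that libraries came from separate animals, so the p-values below speak of the spread among these libraries alone, and that spread may be technical. RNA was reverse transcribed from its poly(A) tail, amplified as full-length cDNA and tagmented, so a message that gains or loses its tail can change its count while its copy number stays the same.

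The nuclear pore complex is the only passage for proteins and RNA through the nuclear envelope. Its outer and inner rings form the scaffold, nucleoporins rich in phenylalanine and glycine fill the channel, and filaments reach into the cytoplasm and form a basket on the nuclear side. Importins carry cargo inward and exportins carry it outward, and the GTPase RAN, charged on chromatin by RCC1, tells both which side they are on. Importin alpha proteins are adaptors that link cargo to importin beta (KPNB1), and other members of the beta family bind cargo directly. A GV oocyte has a large nucleus with an intact envelope and many pores. At meiotic resumption the envelope breaks down, pores and lamina disassemble, and an MII oocyte has no nucleus until fertilisation, after which pronuclei with new envelopes, pores and lamina form from stored material.

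The libraries held 22901970 to 29245733 counts. Levels are given as CPM, counts relative to library sizes that were scaled by TMM, a trimmed mean of log ratios. The scaling factors were 0.7662 to 0.9848 in MII libraries and 1.3815 to 1.423 in GV libraries. The scaling matters for every comparison with GV. With it the median log2 fold change over all tested genes was -0.10 for IVM MII over GV and -0.16 for IVO MII over GV. With unscaled library totals the median was -0.80 for IVM MII over GV and -0.78 for IVO MII over GV. All 12 oocyte markers had counts in every library, with summed levels of 23448 to 30696 CPM in IVM MII, 28539 to 32201 CPM in IVO MII and 16990 to 19329 CPM in GV. The 14 cumulus and granulosa markers with a row summed to 98.7 to 218 CPM in IVM MII, 63.1 to 99.0 CPM in IVO MII and 18.3 to 20.3 CPM in GV, with AMH and PTX3 at 0 in all libraries. These sums came mostly from TNFAIP6 (107 CPM in IVM MII, 32.2 in IVO MII), FSHR (35.2 and 4.66) and HAS2 (14.3 and 39.0). STAR and LHCGR had counts in GV libraries only. The 10 stroma, theca and endothelium markers summed to 74.0 to 90.9 CPM in IVM MII, 92.3 to 128 CPM in IVO MII and 1093 to 1221 CPM in GV, where VWF alone had 1066 ± 105 CPM (SD, n = 2), and LUM and COL3A1 were at 0. The 9 blood and immune markers summed to at most 1.12 CPM in any library, with 5 of them at 0. These marker levels move with the groups, and their part in the results was not tested. The labels do not give how many cells a library holds, so fewer cells of a type and less RNA per cell cannot be told apart. The file labels put the GV libraries in another folder than the MII libraries, so that difference and the stage cannot be told apart.

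KPNA7, the importin alpha known from other mammals as the form of oocytes and early embryos, was the most abundant member per transcript length in all groups. Its level was 2083 ± 1024 CPM per kilobase in IVM MII, 2569 ± 1394 CPM per kilobase in IVO MII and 1272 ± 6.24 CPM per kilobase in GV (SD, n = 3, 2 and 2). It alone made up 23.8% to 43.8% of the summed member CPM in IVM MII libraries, 24.3% to 51.3% in IVO MII libraries and 39.0% to 39.6% in GV libraries. After it the order differed between stages. In IVM MII, NUP35 (975 ± 193 CPM per kilobase) and NUP37 (462 ± 123) came next. In IVO MII these were also NUP35 (685 ± 759) and NUP37 (569 ± 229). In GV they were KPNA2 (412 ± 16.4) and NUP35 (183 ± 13.5). At the other end, KPNA4, IPO4 and NUP62CL each had 0 counts in at least 1 library, where a count of 0 allows a level of up to 0.0907 to 0.161 CPM (3 counts in a library). Together the members took 0.829% to 1.22% of the library counts in IVM MII, 0.979% to 1.23% in IVO MII and 0.799% to 0.841% in GV. On the scaled values they summed to 9502 to 13453 CPM in IVM MII, 11748 to 12510 CPM in IVO MII and 5786 to 5912 CPM in GV. The excess of the IVM MII libraries over GV thus depends on the scaling, since the unscaled shares of the lowest IVM MII library and the highest GV library overlap.

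**Figure D1:**
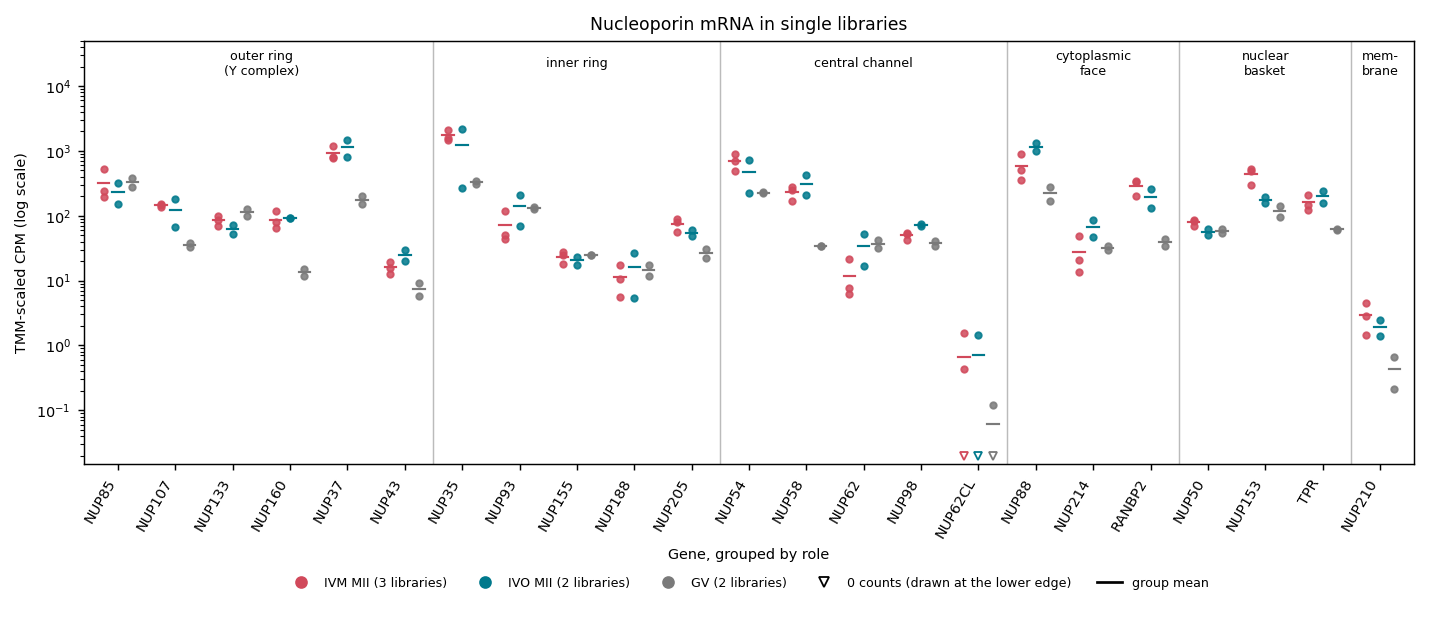
TMM-scaled CPM (log axis) of the 23 nucleoporin genes in single libraries, grouped by place in the pore. Each point is a library, dashes are group means, and open triangles at the lower edge are libraries with 0 counts. NUP37, NUP58, NUP160 and RANBP2 stand higher in all 5 MII libraries than in both GV libraries, while NUP85, NUP155 and NUP188 overlap.

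Between MII and GV oocytes, 20 of the 51 members rose and 3 fell in IVM MII, and 14 rose and 1 fell in IVO MII (edgeR quasi-likelihood test, Benjamini-Hochberg adjusted p under 0.05 over all genes tested). In either direction 23 members changed in IVM MII, beside 36.3% of all genes tested, and 15 in IVO MII, a share near the 28.1% of all genes. At an unadjusted p under 0.05 the numbers were 27 members in IVM MII (47.5% of all genes) and 25 in IVO MII (42.1%). Among all genes tested, 18.5% rose and 17.8% fell in IVM MII against GV, and 14.6% rose and 13.5% fell in IVO MII against GV. The members' calls were therefore more often upward than those of all genes: 39.22% rose and 5.88% fell in IVM MII, and 27.45% rose and 1.96% fell in IVO MII. Their median log2 fold change was 0.71 in IVM MII and 0.98 in IVO MII, beside -0.10 and -0.16 for all genes. Both comparisons share the GV libraries and are not independent of each other. Without overlap, 28 members were higher in every IVM MII library than in both GV libraries and 11 lower, beside 31.5% and 37.5% of all genes. For IVO MII the numbers were also 28 and 11, beside 32% and 40.8% of all genes. No set test was made.

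**Figure D2:**
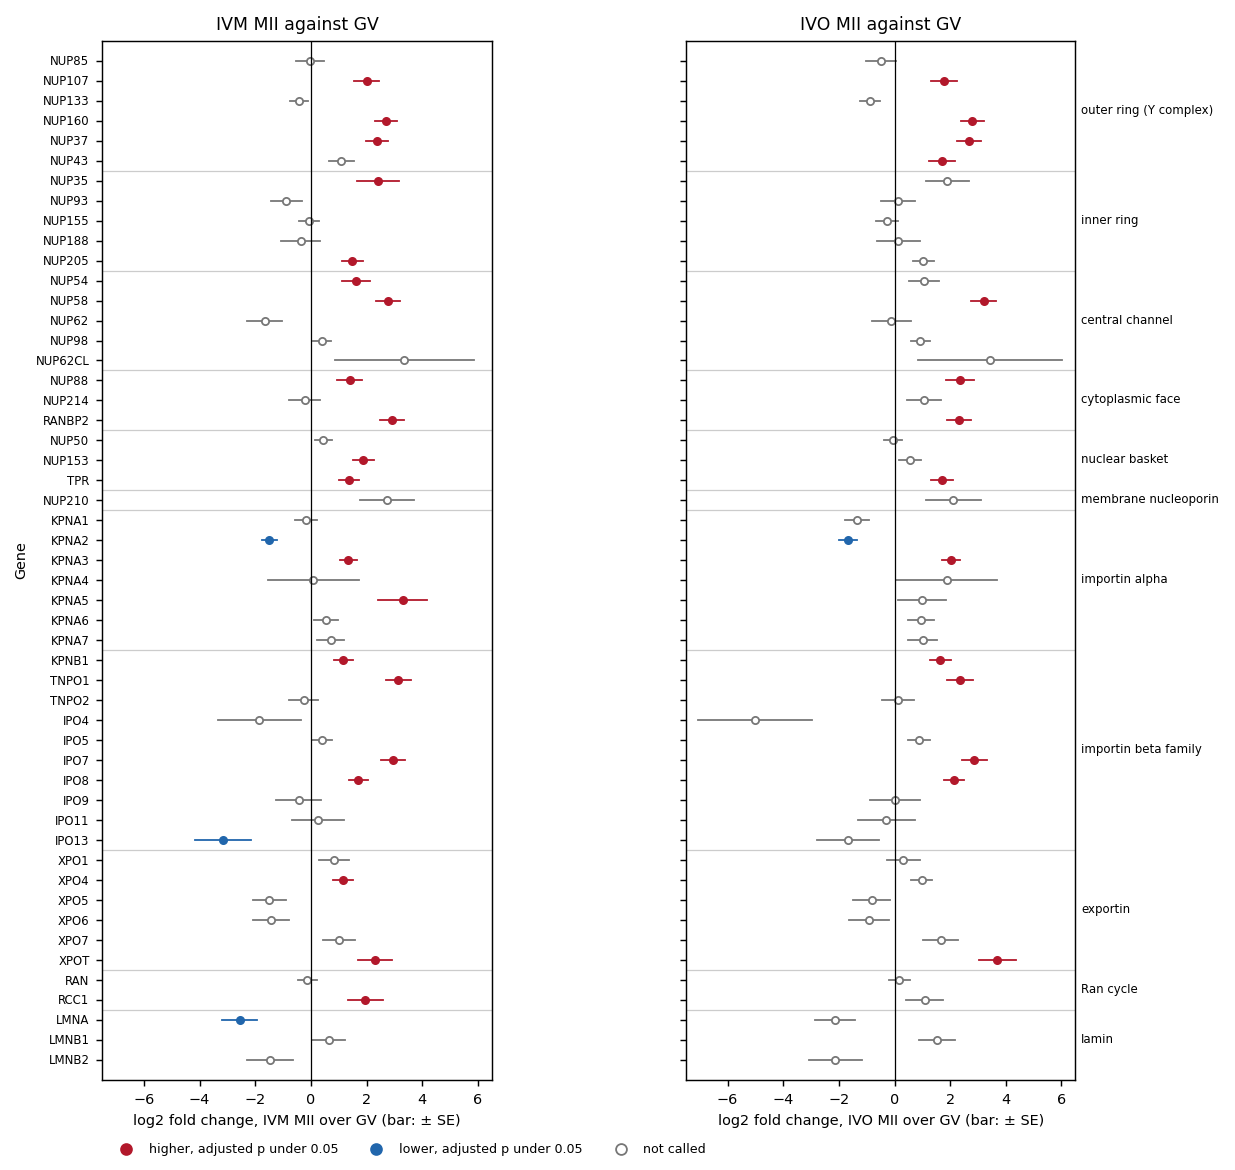
Log2 fold change of all 51 members in IVM MII over GV (left) and IVO MII over GV (right), with bars of 1 SE from the edgeR fit. Filled points passed an adjusted p of 0.05 and open points did not; 20 members lie filled to the right and 3 to the left in IVM MII, and 14 and 1 in IVO MII.

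The upward share of the calls was smaller without scaling, for the members and for all genes. With unscaled library totals 10 members rose and 7 fell in IVM MII, so that 58.82% of the calls were upward in place of 86.96%. In IVO MII 10 rose and 4 fell (71.43% in place of 93.33%). Over all genes the upward share of calls was 27.83% in place of 51.05% in IVM MII, and 30.02% in place of 52.05% in IVO MII. The members' calls thus stayed more often upward than those of all genes. With the size factors of DESeq2 in edgeR (RLE), 14 rose and 3 fell in IVO MII (82.35% upward, beside 47.42% for all genes). The counts also rest on having both GV libraries: without GV 1 or GV 2, fewer calls passed among the members and among all genes. Without GV 1 the members' median log2 fold change was 0.63 in IVM MII and 0.90 in IVO MII (all genes -0.03 and -0.08). Without GV 2 it was 0.69 and 0.97 (all genes -0.05 and -0.13). Without IVM MII 1, 13 members rose and 3 fell in IVM MII, beside 2185 and 2054 of all genes tested. In every alternative tried, the calls of NUP160, NUP37, NUP58 and IPO7 held in both comparisons, those of RANBP2, TNPO1 and KPNA2 held in IVM MII, and that of KPNA3 held in IVO MII.

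In the outer rings, built from Y-shaped complexes, 3 of 6 genes rose in IVM MII against GV, 4 of 6 rose in IVO MII, and none fell in either. NUP37 (chromosome 11, bases 105832419 to 105888087 of the deposited table, minus strand), a beta-propeller subunit of the Y complex, had 1209, 801 and 766 CPM in the IVM MII libraries and 1465 and 816 CPM in the IVO MII libraries, against 153 and 202 CPM in GV. All MII libraries lay above both GV libraries. Its log2 fold change over GV was 2.38 in IVM MII with an SE of 0.40 (edgeR adjusted p = 0.00316). In IVO MII it was 2.68 with an SE of 0.43 (edgeR adjusted p = 0.00351). NUP160 (chromosome 14, bases 19671183 to 19744373), a large arm of the complex, had 117, 64.4 and 79.2 CPM in IVM MII and 92.8 and 93.6 CPM in IVO MII, against 11.8 and 15.1 CPM in GV. The stages did not overlap. The log2 fold changes over GV were 2.69 in IVM MII (SE 0.40, edgeR adjusted p = 0.00209) and 2.79 in IVO MII (SE 0.41, adjusted p = 0.00294). NUP107 (chromosome 11, bases 67737294 to 67793699), which joins the stem of the Y, had 154, 146 and 135 CPM in IVM MII and 179 and 65.9 CPM in IVO MII, against 33.2 and 38.5 CPM in GV. Its IVO MII libraries differed widely but both exceeded GV. The log2 fold changes were 2.02 in IVM MII (SE 0.45, edgeR adjusted p = 0.00957) and 1.77 in IVO MII (SE 0.47, adjusted p = 0.0239). NUP43, another beta-propeller subunit, rose in IVO MII (24.5 ± 6.53 CPM against 7.51 ± 2.44 CPM in GV, SD, n = 2 each; log2 fold change 1.70, edgeR adjusted p = 0.0303) and had 19.4, 12.7 and 15.8 CPM in IVM MII.

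The other Y complex genes did not share that pattern. NUP85, another subunit of the complex, had 238, 194 and 532 CPM in IVM MII and 152 and 319.8 CPM in IVO MII, against 380.1 and 279 CPM in GV, with overlapping groups. NUP133, the tip of the stem that touches the membrane, had 85.4, 100.2 and 70.4 CPM in IVM MII and 71.3 and 53.1 CPM in IVO MII, against 129 and 100.5 CPM in GV. It was lower in every MII library without passing the test (log2 fold change -0.43 in IVM MII, edgeR adjusted p = 0.321, and -0.88 in IVO MII, adjusted p = 0.0925), and was called lower in both with unscaled library totals. Within the summed CPM per kilobase of the 6 genes, a ratio that the scaling of libraries cannot change, NUP37 made up 67.3% ± 10.2 in IVM MII, 74.7% ± 9.85 in IVO MII and 32.9% ± 8.11 in GV. NUP85 made up 19.97% ± 11.2 in IVM MII, 14.8% ± 10.8 in IVO MII and 51.2% ± 8.34 in GV (SD, n = 3, 2 and 2). Messages for subunits of 1 complex thus stood in different proportions in the MII and GV libraries, a difference that was not tested. The call of NUP107 in IVO MII was lost without IVO MII 1 (log2 fold change 0.87, edgeR adjusted p = 0.134), GV 1 (adjusted p = 0.155) or GV 2 (0.114), with unscaled totals (0.0853) and in a fit of the 2 groups alone (0.0538), and its call in IVM MII without GV 1 (0.0889) or GV 2 (0.0626). That of NUP43 was lost without IVO MII 1 (edgeR adjusted p = 0.113), GV 1 (0.2496) or GV 2 (0.105), and with unscaled totals (0.114). NUP37 shares 3.19% of its exon bases with PARPBP on the other strand, and whether the counting used the strand is not given in the sources used here.

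In the inner ring, 2 of 5 genes rose in IVM MII and none changed in IVO MII. NUP35 (chromosome 12, bases 72114663 to 72158135), a membrane-binding scaffold protein, had 2128, 1484 and 1595 CPM in IVM MII and 2175 and 263 CPM in IVO MII, against 309 and 343 CPM in GV. IVO MII 1 was at the level of the IVM MII libraries, while IVO MII 2 was below both GV libraries, an 8.26-fold gap within 1 group. The log2 fold change over GV was 2.41 in IVM MII (SE 0.75, edgeR adjusted p = 0.0349) and 1.90 in IVO MII (SE 0.77, adjusted p = 0.094). Without IVO MII 2 it passed in IVO MII (2.73, edgeR adjusted p = 0.00419), and without IVO MII 1 it passed as higher in IVM MII than in IVO MII (2.72, adjusted p = 0.0299). NUP205, one of the large inner ring scaffolds, rose in IVM MII, at 74.5 ± 16.1 CPM against 26.5 ± 5.99 CPM in GV (log2 fold change 1.49, edgeR adjusted p = 0.0141; SD, n = 3 and 2), and had 54.4 ± 8.25 CPM in IVO MII. Its paralog NUP188 and NUP155, which contacts the membrane, did not pass. NUP93, the anchor of the channel nucleoporins, had 49.7, 44.4 and 118.5 CPM in IVM MII and 70.6 and 212 CPM in IVO MII, against 137 and 125 CPM in GV. Every IVM MII library was below GV, while IVO MII lay on either side. The NUP93 value did not pass in IVM MII (-0.89 on the log2 scale with an SE of 0.55, edgeR adjusted p = 0.236), but it was called lower with the replicate block (-1.48, adjusted p = 0.0394) and without IVM MII 3 (-1.51, adjusted p = 0.0478). Only IVM MII 3 has replicate number 3, so the block nearly repeats the fit without that library. The NUP35 call in IVM MII was lost when any of IVM MII 1, 2 and 3 or GV 1 and 2 was left out (edgeR adjusted p = 0.0562 to 0.155) and with unscaled totals (0.0856). That of NUP205 was lost without GV 1 (edgeR adjusted p = 0.170) or GV 2 (0.0743) and with unscaled totals (0.124).

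Of the 5 genes of the central channel, 2 rose in IVM MII and 1 in IVO MII. NUP58 (chromosome 17, bases 5282101 to 5333575), which with NUP54 and NUP62 forms the trimer that lines the channel, had 281, 251 and 167 CPM in IVM MII and 419 and 207 CPM in IVO MII, against 33.6 and 34.5 CPM in GV. Even the lowest MII library was far above GV. On the log2 scale the change was 2.77 in IVM MII (SE 0.43, edgeR adjusted p = 0.00238) and 3.20 in IVO MII (SE 0.45, adjusted p = 0.00267), where it was 2.59 without IVO MII 1. NUP58 shares 6.0% of its exon bases with an uncharacterised locus on the other strand. NUP54 had 687, 498 and 910.0 CPM in IVM MII and 731 and 221 CPM in IVO MII, against 229 and 224 CPM in GV. IVO MII 2 again sat at the GV level while IVO MII 1 sat among the IVM MII libraries. NUP54 rose in IVM MII (1.62 on the log2 scale with an SE of 0.52, edgeR adjusted p = 0.0378), and in IVO MII the value was 1.07 (SE 0.54, adjusted p = 0.165), which passed without IVO MII 2 (1.68, adjusted p = 0.0234).

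The third partner of the trimer went another way: NUP62 had 7.57, 6.13 and 21.2 CPM in IVM MII and 16.5 and 51.4 CPM in IVO MII, against 41.5 and 32.3 CPM in GV. All IVM MII libraries were below GV, and the IVO MII libraries lay on either side of it. The log2 fold change was -1.66 in IVM MII (SE 0.64, edgeR adjusted p = 0.0706), past the threshold in 10 of the 16 alternatives recomputed gene by gene, and -0.12 in IVO MII. Among those 10, the replicate block and the fit without IVM MII 3 are nearly the same fit (log2 fold change -2.44 and -2.47). NUP62 shares 3.93% of its exon bases with IL4I1 on the same strand. NUP98, a mobile channel nucleoporin, was higher in all MII libraries (49.9 ± 6.21 CPM in IVM MII and 71.5 ± 3.97 CPM in IVO MII against 37.8 ± 5.04 CPM in GV) without passing the test (edgeR adjusted p = 0.343 and 0.0756). NUP62CL, a gene related to NUP62, had 0.429, 0 and 1.58 CPM in IVM MII and 1.43 and 0 CPM in IVO MII, against 0.121 and 0 CPM in GV. Libraries of the same group disagreed, with 0 beside 42 counts in IVM MII and 0 beside 28 in IVO MII. No difference passed (SE over GV 2.49 in IVM MII and 2.59 in IVO MII). The NUP54 call was lost without IVM MII 1 (edgeR adjusted p = 0.0776), IVM MII 3 (0.0792), GV 1 (0.167) or GV 2 (0.165), with RLE factors (0.0561) and with unscaled totals (0.159).

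At the cytoplasmic face, 2 of 3 genes rose in both kinds of MII oocyte. RANBP2 (chromosome 13, bases 13242613 to 13316494) encodes the giant filament protein that binds RAN and acts as a SUMO ligase. It had 329, 342 and 202 CPM in IVM MII and 255 and 132 CPM in IVO MII, against 33.8 and 43.7 CPM in GV. No MII library came near GV. On the log2 scale the change was 2.91 in IVM MII (SE 0.44, edgeR adjusted p = 0.00222) and 2.32 in IVO MII (SE 0.44, adjusted p = 0.00673). In humans RANBP2 has near-identical partial copies, and how reads with several matches were counted is not given in the sources used here, so its level is uncertain. NUP88 (chromosome 16, bases 5419651 to 5454103), which holds NUP214 at the cytoplasmic ring, had 509, 353 and 906 CPM in IVM MII and 981 and 1320.3 CPM in IVO MII, against 280.4 and 168 CPM in GV. All IVO MII libraries exceeded all IVM MII libraries, and these exceeded GV. The log2 fold change over GV was 1.39 in IVM MII (SE 0.46, edgeR adjusted p = 0.0427) and 2.36 in IVO MII (SE 0.50, adjusted p = 0.0102). NUP214, a docking site for exportins, had 20.5, 13.7 and 48.2 CPM in IVM MII and 46.2 and 87.5 CPM in IVO MII, against 34.2 and 29.9 CPM in GV, and did not pass in either comparison with GV. The NUP88 call in IVM MII was lost in 10 alternatives, among them leaving out IVM MII 1 (edgeR adjusted p = 0.0724), IVM MII 3 (0.0847), IVO MII 2 (0.0596), GV 1 (0.0921) or GV 2 (0.268), the replicate block (0.0870) and unscaled totals (0.286). Its call in IVO MII was lost without GV 2 (edgeR adjusted p = 0.0827), and that of RANBP2 in IVO MII without GV 1 (0.0663).

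In the nuclear basket, 2 of 3 genes rose in IVM MII and 1 in IVO MII. TPR (chromosome 1, bases 44230339 to 44293769, minus strand), the coiled-coil protein of the basket filaments, had 124, 147 and 211 CPM in IVM MII and 158 and 244 CPM in IVO MII, against 60.9 and 62.8 CPM in GV. Every MII library was above GV. The log2 fold changes were 1.38 in IVM MII (SE 0.36, edgeR adjusted p = 0.0187) and 1.70 in IVO MII (SE 0.39, adjusted p = 0.0134). NUP153, which anchors the basket to the ring and binds lamins, had 521, 491 and 294 CPM in IVM MII and 156 and 193 CPM in IVO MII, against 94.9 and 142 CPM in GV. The 3 groups did not overlap. NUP153 rose in IVM MII over GV (1.88 on the log2 scale with an SE of 0.38, edgeR adjusted p = 0.00622), and the IVO MII value was 0.56 (SE 0.39, adjusted p = 0.307). NUP50, a cofactor of importin alpha release, had 79.3 ± 8.79 CPM in IVM MII, 56.3 ± 7.48 CPM in IVO MII and 58.3 ± 6.97 CPM in GV (SD, n = 3, 2 and 2), with no call. The transmembrane nucleoporin NUP210 (chromosome 2, bases 144374568 to 144478714, minus strand) was weakly expressed. It had 2.84, 1.44 and 4.59 CPM in IVM MII and 1.38 and 2.43 CPM in IVO MII, against 0.212 and 0.664 CPM in GV (log2 fold change 2.74, edgeR adjusted p = 0.055, and 2.11, adjusted p = 0.143). The TPR calls were lost without GV 1 (edgeR adjusted p = 0.147 in IVM MII and 0.109 in IVO MII) or GV 2 (0.129 and 0.100), with unscaled totals (0.213 and 0.0928) and, in IVO MII, without IVO MII 2 (0.0508). The NUP153 call in IVM MII was lost without GV 1 (edgeR adjusted p = 0.0834).

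**Figure D3:**
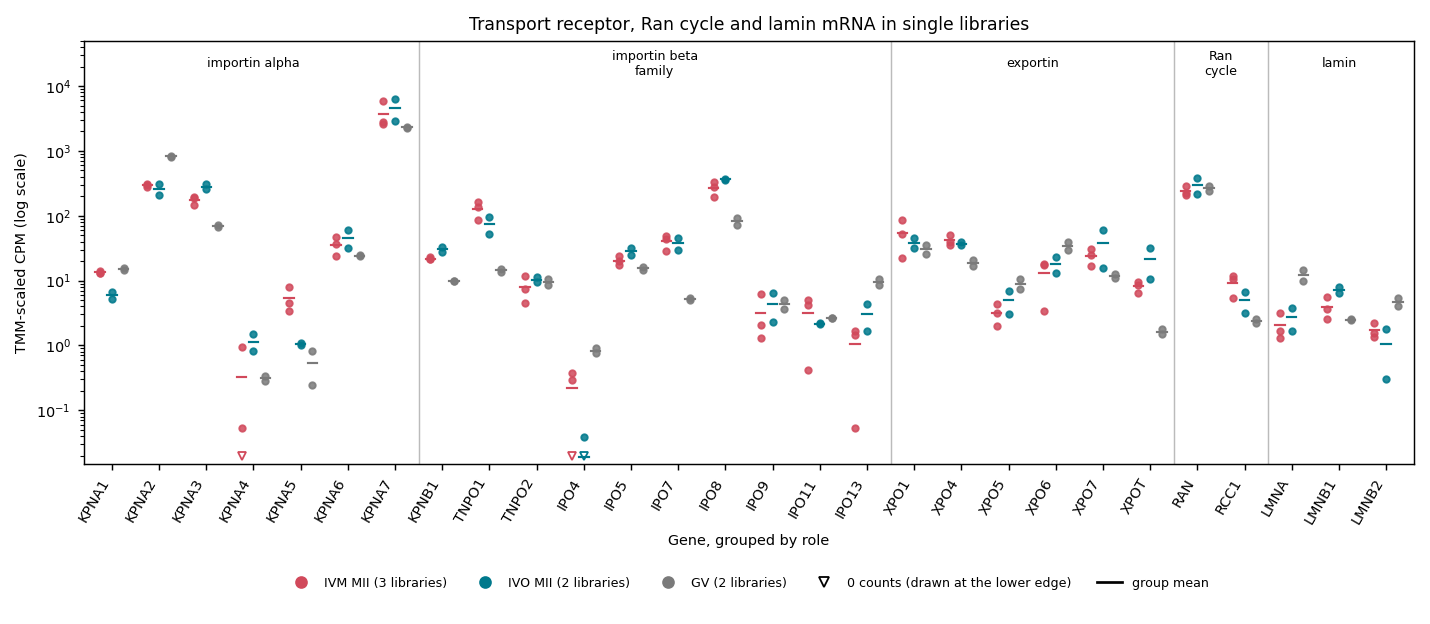
TMM-scaled CPM (log axis) of the 28 transport receptor, Ran cycle and lamin genes in single libraries, with group means as dashes and libraries with 0 counts as open triangles at the lower edge. KPNA2 is the abundant gene that stands lower in all 5 MII libraries than in GV; IPO7, IPO8 and TNPO1 stand higher, and RAN overlaps.

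Among the 7 importin alpha genes, 2 rose and 1 fell in IVM MII, and 1 rose and 1 fell in IVO MII. KPNA2 (chromosome 16, bases 65247817 to 65259713), the adaptor typical of dividing cells, was the only member to fall in both comparisons. It had 308, 296 and 276 CPM in IVM MII and 211 and 308 CPM in IVO MII, against 846 and 799.9 CPM in GV. The groups were well apart. The log2 fold changes were -1.49 in IVM MII (SE 0.28, edgeR adjusted p = 0.00479) and -1.66 in IVO MII (SE 0.32, adjusted p = 0.00691). KPNA7 (chromosome 3, bases 43426053 to 43473763, minus strand) had 2577, 2818 and 5893 CPM in IVM MII and 2859.6 and 6420.1 CPM in IVO MII, against 2306 and 2290.2 CPM in GV. All MII libraries were above GV, but IVM MII 3 and IVO MII 2 had 2.29 and 2.25 times the level of the lowest library of their group. The difference did not pass (0.71 on the log2 scale with an SE of 0.48, edgeR adjusted p = 0.271 in IVM MII, and 1.01, SE 0.52, adjusted p = 0.172 in IVO MII). KPNA3 rose in both, with 145, 187 and 198 CPM in IVM MII and 304 and 258 CPM in IVO MII, against 71.9 and 67.0 CPM in GV. Its log2 fold changes were 1.35 in IVM MII (SE 0.30, edgeR adjusted p = 0.00956) and 2.02 in IVO MII (SE 0.33, adjusted p = 0.0037). KPNA5 was low but rose in IVM MII, at 5.31 ± 2.45 CPM against 0.532 ± 0.410 CPM in GV (log2 fold change 3.31, edgeR adjusted p = 0.0201; SD, n = 3 and 2), and had 1.05 ± 0.0428 CPM in IVO MII. KPNA1 had 13.5 ± 0.608 CPM in IVM MII, 5.90 ± 1.09 CPM in IVO MII and 15.1 ± 0.597 CPM in GV (edgeR adjusted p = 0.773 for IVM MII and 0.0512 for IVO MII against GV). In IVO MII its log2 fold change was -1.35, and it was called lower there in 6 alternatives. These were RLE factors (edgeR adjusted p = 0.0444), unscaled totals (0.0141), DESeq2 (0.00439), limma voom (0.0328), the newer edgeR fit (0.0362) and leaving out IVM MII 3 (0.0404). KPNA6 and KPNA4 did not pass, KPNA4 with at most 1.48 CPM in any library.

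Counted per transcript length, the importin alpha messages of GV oocytes were shared between KPNA7 and KPNA2, and those of MII oocytes were nearly all KPNA7. KPNA7 made up 88.1%, 88.9% and 94.5% of the summed CPM per kilobase in IVM MII and 90.0% and 94.2% in IVO MII, against 74.2% and 75.1% in GV. KPNA2 made up 9.53%, 8.43% and 4.01% in IVM MII and 6.01% and 4.09% in IVO MII, against 24.6% and 23.7% in GV. Per length there were 9.25, 10.5 and 23.6 KPNA7 counts for each KPNA2 count in IVM MII libraries and 14.97 and 23.0 in IVO MII libraries, against 3.01 and 3.17 in GV libraries. Stages did not overlap in any of these ratios, which do not depend on the scaling of the libraries; they were not tested. KPNA2 has intronless copies in the human genome, and an aligner that does not split reads may place reads on such copies, so its level is uncertain. The KPNA2 call in IVO MII was lost without GV 1 (edgeR adjusted p = 0.0539), and that of KPNA3 in IVM MII without GV 1 (0.0986) or GV 2 (0.111) and with unscaled totals (0.130). The KPNA5 call was lost without IVM MII 1 (edgeR adjusted p = 0.0572), GV 1 (0.175, log2 fold change 2.66) or GV 2 (0.0584, log2 fold change 4.41).

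**Figure D4:**
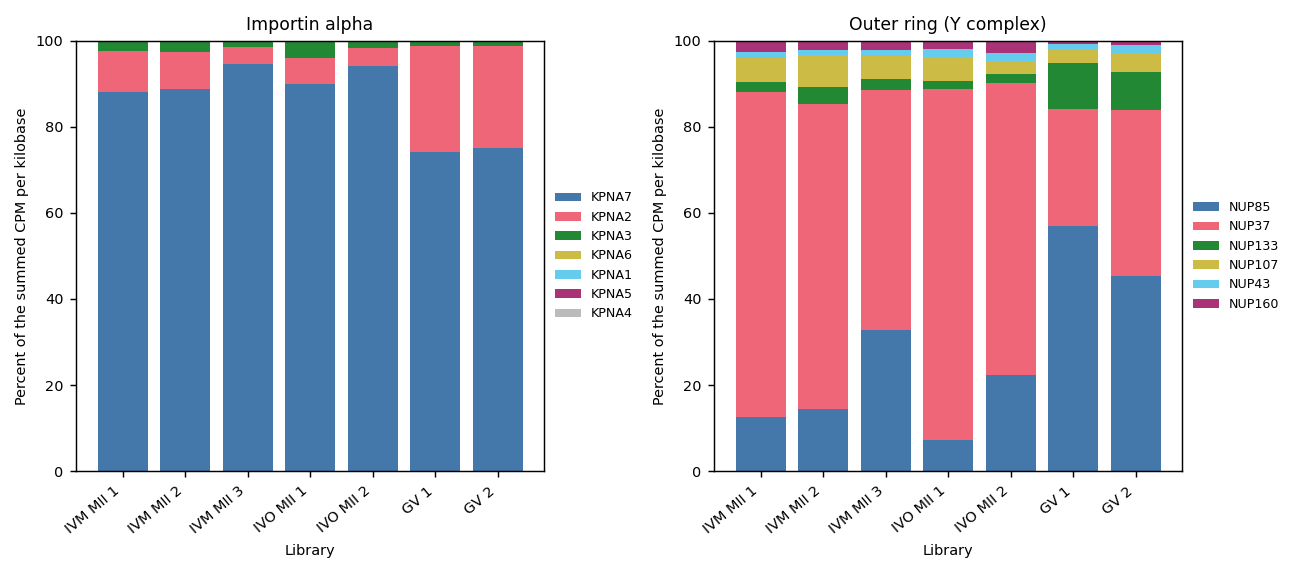
Share of each gene in the summed CPM per kilobase of its group, for the 7 importin alpha genes (left) and the 6 outer ring genes (right), with 1 stacked bar for each library. KPNA7 takes 88.1% to 94.5% of the importin alpha bars in MII libraries and 74.2% to 75.1% in GV; NUP37 takes 55.8% to 81.6% of the outer ring bars in MII libraries and 27.2% to 38.6% in GV.

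In the importin beta family, 4 of 10 genes rose and 1 fell in IVM MII, and 4 rose and none fell in IVO MII. IPO7 (chromosome 14, bases 58360028 to 58432044, minus strand), an importer of ribosomal proteins and histones, had 48.1, 43.1 and 29.0 CPM in IVM MII and 45.3 and 30.1 CPM in IVO MII, against 5.35 and 5.03 CPM in GV. MII levels exceeded GV in every library. Log2 fold changes were 2.95 in IVM MII (SE 0.43, edgeR adjusted p = 0.00209) and 2.86 in IVO MII (SE 0.45, adjusted p = 0.0034). TNPO1 (chromosome 6, bases 70975932 to 71075386), transportin, the importer of hnRNP proteins, had 136, 163 and 85.2 CPM in IVM MII and 95.9 and 52.5 CPM in IVO MII, against 15.2 and 13.8 CPM in GV. It was higher in every MII library. Log2 fold changes were 3.15 in IVM MII (SE 0.45, edgeR adjusted p = 0.00198) and 2.36 in IVO MII (SE 0.46, adjusted p = 0.00695). IPO8, an importer of Argonaute proteins, had 333, 279 and 192 CPM in IVM MII and 369 and 355 CPM in IVO MII, against 73.0 and 91.8 CPM in GV (log2 fold change 1.70, edgeR adjusted p = 0.00613, and 2.14, adjusted p = 0.00462). KPNB1 (chromosome 16, bases 32966157 to 33002378), importin beta itself, had 23.2, 21.3 and 21.2 CPM in IVM MII and 33.0 and 27.7 CPM in IVO MII, against 9.71 and 9.71 CPM in GV. Libraries of a group lay close together. The log2 fold changes were 1.17 in IVM MII (SE 0.36, edgeR adjusted p = 0.0333) and 1.64 in IVO MII (SE 0.39, adjusted p = 0.0153).

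IPO13, a receptor that carries cargo both ways, fell in IVM MII, with 0.0537, 1.65 and 1.47 CPM against 10.6 and 8.54 CPM in GV (-3.16 on the log2 scale with an SE of 1.02, edgeR adjusted p = 0.0401), and had 1.68 and 4.36 CPM in IVO MII (adjusted p = 0.292 against GV). IPO4, an importer of histones, was near the floor in MII, with 0, 7 and 10 counts in IVM MII and 0 and 1 counts in IVO MII, against 30 and 24 counts in GV. The ratio of IVO MII to GV was 0.0263 (95% counting interval 0.000654 to 0.153). That interval covers counting error only and leaves out the spread between libraries. In the edgeR fit the IPO4 value was -5.02 on the log2 scale with an SE of 2.06 (adjusted p = 0.0975), with no call. IPO5, an importer of ribosomal proteins, had 20.3 ± 3.32 CPM in IVM MII, 28.4 ± 5.13 CPM in IVO MII and 15.4 ± 1.45 CPM in GV, above GV in all MII libraries without a call. The importers IPO9 and IPO11 and the transportin TNPO2 overlapped between stages or did not pass, with log2 fold changes of -0.44 to 0.25 in IVM MII and -0.29 to 0.11 in IVO MII. IPO11 shares 14.28% and IPO9 8.02% of its exon bases with a gene on the same strand. The calls that left out libraries ended were those of TNPO1 in IVO MII (without GV 1, edgeR adjusted p = 0.0564, or GV 2, 0.0627), IPO8 (without GV 1, 0.0858 in IVM MII and 0.0569 in IVO MII) and IPO13 (without IVM MII 2, 0.0660, IVM MII 3, 0.0613, GV 1, 0.157, or GV 2, 0.109). KPNB1 in IVO MII was lost without IVO MII 1 (edgeR adjusted p = 0.0504), GV 1 (0.144) or GV 2 (0.139) and with unscaled totals (0.0819), and in IVM MII in 8 alternatives (0.0535 to 0.335), among them leaving out IVM MII 1 (0.0814), IVM MII 2 (0.0637), GV 1 (0.237) or GV 2 (0.225).

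Of the 6 exportins, 2 rose in IVM MII and 1 in IVO MII. XPOT (chromosome 11, bases 63428122 to 63472013), the exporter of tRNA, had 8.58, 9.38 and 6.36 CPM in IVM MII and 31.7 and 10.7 CPM in IVO MII, against 1.78 and 1.49 CPM in GV. The 3 groups did not overlap, IVO MII being highest and GV lowest. On the log2 scale the change over GV was 2.31 in IVM MII (SE 0.60, edgeR adjusted p = 0.0181) and 3.69 in IVO MII (SE 0.67, adjusted p = 0.00541), where it was 2.70 without IVO MII 1. XPO4, an exporter of the translation factor eIF5A, rose in IVM MII at 41.7 ± 7.59 CPM against 18.7 ± 2.91 CPM in GV (log2 fold change 1.154, edgeR adjusted p = 0.0333; SD, n = 3 and 2), and had 36.9 ± 2.72 CPM in IVO MII (adjusted p = 0.0822 against GV). XPO1 (chromosome 13, bases 48529516 to 48590474), the main exporter of proteins with a nuclear export signal, had 52.8, 86.1 and 22.6 CPM in IVM MII and 44.6 and 31.3 CPM in IVO MII, against 25.3 and 35.5 CPM in GV. Its groups overlapped (log2 fold change 0.82, edgeR adjusted p = 0.261, and 0.32, adjusted p = 0.709). XPO5, the exporter of microRNA precursors, and XPO6, the exporter of actin with profilin, were lower in every MII library than in GV without passing the test. XPO5 had 3.18 ± 1.21 CPM in IVM MII and 5.04 ± 2.80 CPM in IVO MII against 8.96 ± 2.21 CPM in GV, and XPO6 had 12.9 ± 8.21 CPM in IVM MII and 18.2 ± 7.42 CPM in IVO MII against 34.6 ± 6.56 CPM in GV (SD, n = 3, 2 and 2). XPO5 was called lower in IVM MII with unscaled totals (edgeR adjusted p = 0.0325), by DESeq2 (0.0220) and by the newer edgeR fit (0.0458), and XPO6 by DESeq2 (0.0439) and with the replicate block (0.0393). XPO7, an exporter with several kinds of protein cargo, had 17.0, 24.6 and 30.6 CPM in IVM MII and 15.4 and 59.9 CPM in IVO MII, against 12.7 and 11.1 CPM in GV. Every MII library was above GV, IVO MII 2 by far the most, with no call (log2 fold change 1.02, edgeR adjusted p = 0.198, and 1.66, adjusted p = 0.0782). In IVO MII it was called higher by DESeq2 (1.53, adjusted p = 0.0437), by the newer edgeR fit (1.67, adjusted p = 0.0488) and without IVO MII 1 (2.32, adjusted p = 0.0201), and its value was 0.37 without IVO MII 2. The XPOT calls were lost without GV 1 (edgeR adjusted p = 0.110 in IVM MII) or GV 2 (0.134 in IVM MII and 0.0520 in IVO MII) and, in IVM MII, with unscaled totals (0.0599). The XPO4 call was lost without IVM MII 1 (edgeR adjusted p = 0.0698), GV 1 (0.282) or GV 2 (0.160) and in 4 other alternatives (0.0504 to 0.349).

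RAN (chromosome 11, bases 135282511 to 135287611), the GTPase that gives transport its direction, passed the test in neither comparison. It had 289, 228 and 211 CPM in IVM MII and 382 and 216 CPM in IVO MII, against 242 and 287 CPM in GV, with groups that overlapped. The log2 fold change was -0.13 in IVM MII (SE 0.34, edgeR adjusted p = 0.788) and 0.18 in IVO MII (SE 0.37, adjusted p = 0.752). With unscaled library totals RAN was called lower in IVM MII (log2 fold change -0.86, edgeR adjusted p = 0.0429). RAN also has intronless copies in the human genome, so its count is uncertain in the same way as that of KPNA2. RCC1 (chromosome 1, bases 199626304 to 199662154, minus strand), the chromatin-bound factor that loads RAN with GTP, had 11.8, 10.5 and 5.38 CPM in IVM MII and 3.21 and 6.75 CPM in IVO MII, against 2.51 and 2.21 CPM in GV. All MII libraries exceeded GV, and RCC1 rose in IVM MII (1.96 on the log2 scale with an SE of 0.63, edgeR adjusted p = 0.0389). The IVO MII value was 1.08 (SE 0.65, adjusted p = 0.240). Per length the RAN message exceeded that of RCC1 in every group, with RAN at 98.2% to 99.7% of the summed CPM per kilobase of the 2 genes. The RCC1 call was lost without IVM MII 1 (edgeR adjusted p = 0.0951), IVM MII 2 (0.0873), GV 1 (0.194) or GV 2 (0.218) and with unscaled totals (0.162).

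The 3 lamin genes were all weakly expressed, and the A-type lamin fell while most called members rose. LMNA (chromosome 1, bases 95589237 to 95615834, minus strand), which encodes lamins A and C, had 1.29, 1.69 and 3.16 CPM in IVM MII and 1.68 and 3.82 CPM in IVO MII, against 9.74 and 14.6 CPM in GV. All MII libraries lay below GV. LMNA fell by 2.56 on the log2 scale in IVM MII (SE 0.64, edgeR adjusted p = 0.015), and in IVO MII the log2 fold change was -2.14 (SE 0.72, adjusted p = 0.0561), past the threshold in 8 of the 16 alternatives. LMNB1 (chromosome 6, bases 125726581 to 125785987), a B-type lamin, had 2.58, 3.59 and 5.53 CPM in IVM MII and 6.32 and 8.02 CPM in IVO MII, against 2.51 and 2.50 CPM in GV, the reverse order, with no call (log2 fold change 0.64, edgeR adjusted p = 0.420, and 1.52, adjusted p = 0.107). LMNB2 (chromosome 19, bases 2314667 to 2339457, minus strand), the other B-type lamin, had 2.20, 1.56 and 1.35 CPM in IVM MII and 0.306 and 1.81 CPM in IVO MII, against 4.11 and 5.31 CPM in GV (log2 fold change -1.47, edgeR adjusted p = 0.191, and -2.14, adjusted p = 0.123). Against GV it was called lower in IVO MII by DESeq2 (-2.28, adjusted p = 0.0453), by the newer edgeR fit (-2.06, adjusted p = 0.0463) and without IVO MII 2 (-3.93, adjusted p = 0.0311). Within the summed CPM per kilobase of the lamins, LMNA made up 24.2% ± 4.49 in IVM MII, 21.9% ± 5.43 in IVO MII and 62.0% ± 4.19 in GV, and LMNB1 54.5% ± 6.36 in IVM MII, 70.9% ± 11.3 in IVO MII and 15.3% ± 3.36 in GV (SD, n = 3, 2 and 2). The leading lamin message was thus LMNB1 in every MII library and LMNA in both GV libraries. The LMNA call in IVM MII was lost without GV 1 (edgeR adjusted p = 0.0599) or GV 2 (0.131).

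Between both kinds of MII oocyte no member passed the test. None of the 51 members rose and none fell in IVM MII against IVO MII (edgeR, adjusted p under 0.05), where 0.892% of all genes tested rose and 0.58% fell. At an unadjusted p under 0.05, 7 members passed, beside 21.1% of all genes tested. DESeq2 called 3 members higher and 0 lower, and limma voom and the newer edgeR fit called 0. DESeq2 also called more of all 16374 genes, 1224 higher and 786 lower, beside 146 and 95 in the main fit. Its member calls are thus not particular to the members. The median log2 difference was -0.30, beside 0.00 for all genes. In 4 members every IVM MII library was above both IVO MII libraries, and in 10 every one was below, beside 17.8% and 16% of all genes. The SE of the differences ran from 0.28 to 2.11 on the log2 scale with a median of 0.47, so the data do not show that the members were alike in the 2 groups.

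**Figure D5:**
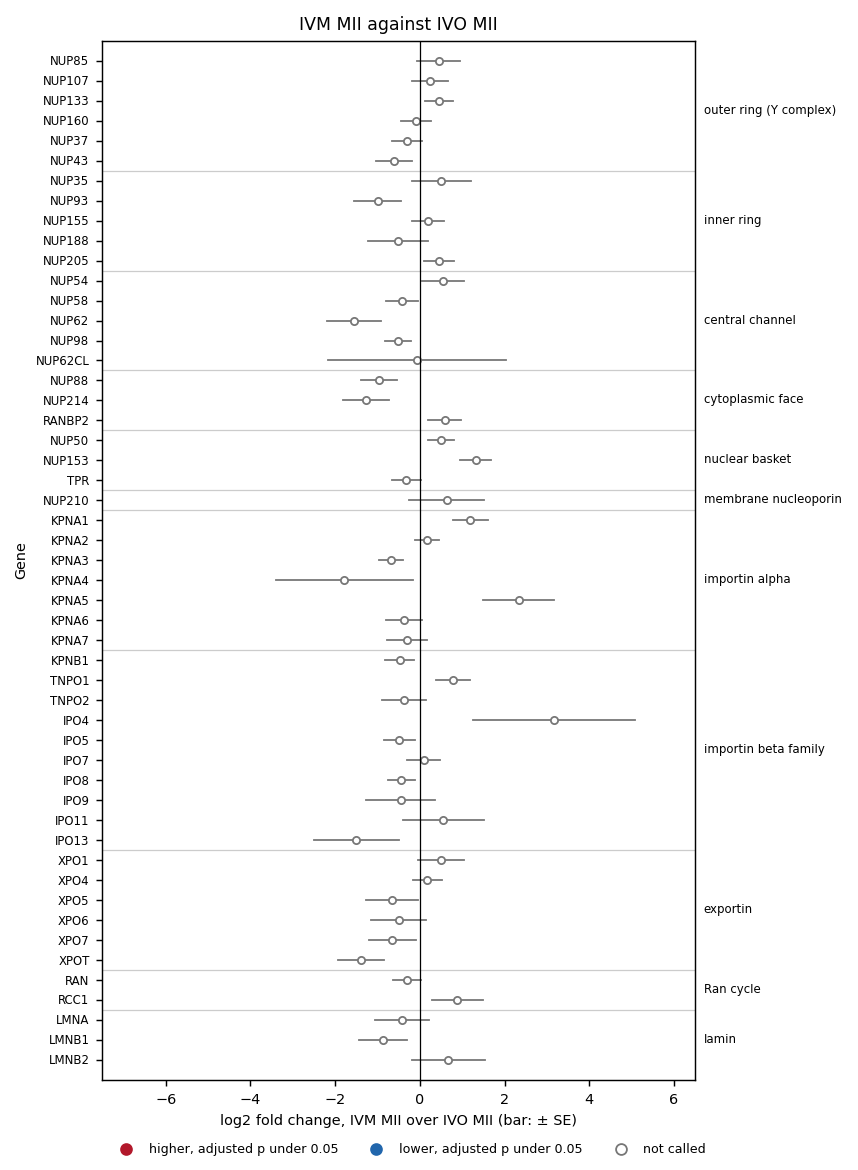
Log2 fold change of all 51 members in IVM MII over IVO MII, with bars of 1 SE from the edgeR fit. All points are open, meaning that none passed an adjusted p of 0.05; NUP153 lies at 1.32 with an SE of 0.37.

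The smallest adjusted p belonged to NUP153 (chromosome 4, bases 152919503 to 153022852), whose 521, 491 and 294 CPM in IVM MII stood against 156 and 193 CPM in IVO MII (1.32 on the log2 scale with an SE of 0.37, edgeR adjusted p = 0.0999). It was called higher by DESeq2 (1.30, adjusted p = 0.0194), with the replicate block in edgeR (1.55, adjusted p = 0.0334) and without IVM MII 3 (1.52, adjusted p = 0.0329). For NUP153, and for NUP214 in this paragraph, the block nearly repeats the fit without IVM MII 3, the only library with replicate number 3. KPNA1, an importin alpha of most tissues, had 14.2, 13.1 and 13.1 CPM in IVM MII against 6.68 and 5.13 CPM in IVO MII (1.19 on the log2 scale with an SE of 0.42, edgeR adjusted p = 0.156), and was the second member that DESeq2 called higher (1.149, adjusted p = 0.0395). KPNA5 was the third by DESeq2 (2.31, adjusted p = 0.0433), at 8.05, 4.52 and 3.35 CPM in IVM MII against 1.02 and 1.08 CPM in IVO MII. XPOT and KPNA3 lay the other way. XPOT had 8.58, 9.38 and 6.36 CPM in IVM MII against 31.7 and 10.7 CPM in IVO MII (-1.39 on the log2 scale with an SE of 0.54, edgeR adjusted p = 0.190), and KPNA3 had 145, 187 and 198 CPM in IVM MII against 304 and 258 CPM in IVO MII (-0.67, SE 0.28, adjusted p = 0.221). NUP214 had 20.5, 13.7 and 48.2 CPM in IVM MII against 46.2 and 87.5 CPM in IVO MII (log2 fold change -1.28, edgeR adjusted p = 0.221) and was called lower without IVM MII 3 (-1.99, adjusted p = 0.0397) and with the replicate block (-1.96, adjusted p = 0.0422). The 2 highly expressed transport genes KPNA7 and RAN each gave a log2 difference of -0.30, with SEs of 0.47 and 0.33 (edgeR adjusted p = 0.751 and 0.639), and IPO4 had 17 counts in all IVM MII libraries against 1 in IVO MII, a ratio of 11.2 (95% counting interval 1.76 to 469.8). That interval covers counting error only and leaves out the spread between the IVM MII libraries, which had 0, 7 and 10 counts; in the edgeR fit the IPO4 value was 3.17 on the log2 scale with an SE of 1.91 (adjusted p = 0.370).

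Genes that work beside the members but carry other symbols were read from lists of pore and mRNA export genes, transport receptors and Ran cycle genes, inner nuclear membrane genes, and genes of envelope breakdown and reassembly. Of 26 other pore and mRNA export genes, 9 rose and 6 fell in IVM MII against GV, 8 rose and 5 fell in IVO MII against GV, and 2 rose in IVM MII against IVO MII. The shares over GV were 34.62% and 23.08% in IVM MII (18.5% and 17.8% of all genes) and 30.77% and 19.23% in IVO MII (14.6% and 13.5%), and the 2 genes are 7.69% (0.892% of all genes). SEH1L (chromosome 18), a Y complex subunit that also sits in the GATOR complex, had 745, 461 and 516 CPM in IVM MII and 187 and 162 CPM in IVO MII, against 55.8 and 65.9 CPM in GV. No groups overlapped, and it was higher in IVM MII than in IVO MII (1.72 on the log2 scale with an SE of 0.33, edgeR adjusted p = 0.0476) and than in GV (3.24, adjusted p = 0.00135). NUPL2, a nucleoporin of the cytoplasmic face now also named with the NUP prefix, had 122, 96.2 and 174 CPM in IVM MII against 21.5 and 17.2 CPM in IVO MII (2.76 on the log2 scale with an SE of 0.39, edgeR adjusted p = 0.024) and 40.1 and 39.8 CPM in GV. THOC2, of the complex that couples transcription to export, rose in both kinds of MII oocyte, to 192 ± 18.0 CPM in IVM MII and 314 ± 66.6 CPM in IVO MII, against 56.9 ± 1.53 CPM in GV (edgeR adjusted p = 0.00342 and 0.0023; SD, n = 3, 2 and 2). The export helicases DDX39A and DDX39B fell in both. DDX39B had 10.04 ± 2.87 CPM in IVM MII and 10.3 ± 0.182 CPM in IVO MII against 61.7 ± 7.22 CPM in GV (log2 fold change -2.62 and -2.58, edgeR adjusted p = 0.00202 and 0.00446), and DDX39A had 8.49 ± 0.652 CPM in IVM MII and 12.7 ± 10.9 CPM in IVO MII against 106 ± 2.38 CPM in GV.

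Of 12 other transport receptors and Ran cycle genes tested, none rose in either comparison with GV, while 5 fell in IVM MII and 2 in IVO MII (0 called in IVM MII against IVO MII; median log2 fold change over GV -0.93 and -1.23). The lower calls were 41.67% of the list in IVM MII, beside 17.8% of all genes, and 16.67% in IVO MII, near the 13.5% of all genes. RANGRF, a RAN-binding release factor, had 0.483, 0.507 and 0.752 CPM in IVM MII and 0 and 0.617 CPM in IVO MII, against 23.0 and 30.2 CPM in GV (edgeR adjusted p = 0.00332 and 0.006). SNUPN, the import adaptor of spliceosomal particles, had 0.376, 0.718 and 1.17 CPM in IVM MII and 0.968 and 0.771 CPM in IVO MII, against 13.6 and 15.3 CPM in GV (edgeR adjusted p = 0.00228 and 0.006). The other 3 that fell in IVM MII, named after their values were seen, were RANGAP1, the GTPase activator of RAN, NUTF2, which carries RAN back into the nucleus, and RANBP3, a cofactor of XPO1. Of 19 inner nuclear membrane and lamina-associated genes, 4 rose and 2 fell in each comparison with GV. That is 21.05% and 10.53% of the list, beside 18.5% and 17.8% of all genes in IVM MII and 14.6% and 13.5% in IVO MII, so the share that rose in IVM MII was near that of all genes. SUN1, which ties the envelope to the cytoskeleton, had 500.2, 478 and 483 CPM in IVM MII and 859 and 652 CPM in IVO MII, against 105.7 and 106.5 CPM in GV (edgeR adjusted p = 0.00171 and 0.0021). TMEM43, an inner membrane protein, fell to 9.19 ± 2.21 CPM in IVM MII and 2.88 ± 1.05 CPM in IVO MII, against 32.7 ± 9.51 CPM in GV (edgeR adjusted p = 0.0136 and 0.00334).

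Of 17 genes of envelope breakdown and reassembly, 4 rose and 3 fell in IVM MII against GV, 2 rose and 1 fell in IVO MII against GV, and 1 rose in IVM MII against IVO MII. The shares were 23.53% and 17.65% in IVM MII over GV, beside 18.5% and 17.8% of all genes. In IVO MII over GV they were 11.76% and 5.88%, beside 14.6% and 13.5% of all genes. The 1 gene over IVO MII is 5.88% (0.892% of all genes). NEK7, a kinase that phosphorylates NUP98 at mitotic entry in human cells, had 152, 105 and 104 CPM in IVM MII and 102 and 73.9 CPM in IVO MII, against 4.23 and 5.98 CPM in GV (log2 fold change 4.56, edgeR adjusted p = 0.00117, and 4.10, adjusted p = 0.0021). The kinase VRK1, which releases chromatin from the envelope by phosphorylating BANF1, had 330.0, 364 and 168 CPM in IVM MII against 62.2 and 46.0 CPM in IVO MII (2.41 on the log2 scale with an SE of 0.42, edgeR adjusted p = 0.038) and 111 and 137 CPM in GV. Without IVM MII 1 the calls of IVM MII against IVO MII were lost (edgeR adjusted p = 0.127 for SEH1L, 0.0885 for NUPL2 and 0.113 for VRK1). They were also lost without IVM MII 2 (edgeR adjusted p = 0.125, 0.0901 and 0.128). In either of those fits 0 of all genes tested passed, so the losses are not particular to these genes. The calls were also lost without IVO MII 2, which leaves 1 IVO MII library (log2 fold change 1.53, 2.52 and 2.12 in the same order). Those of SEH1L and VRK1 were also lost without IVO MII 1 (edgeR adjusted p = 0.0723 and 0.0586), GV 1 (0.0857 and 0.0612) or GV 2 (0.0895 and 0.0662), and all 3 in a fit of the groups compared alone (0.0946 for SEH1L, 0.0522 for NUPL2 and 0.0787 for VRK1). The SEH1L call was also lost with RLE factors (edgeR adjusted p = 0.0571) and upper quartile scaling (0.0548). Against GV, the TMEM43 call in IVM MII was lost without GV 1 (edgeR adjusted p = 0.162) and the SNUPN call in IVO MII without GV 2 (0.0503).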

How the data were processed

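The authors deposited 1 table of raw counts per gene for the 7 libraries, not normalized. Tools listed by the submitters' processing notes are featureCounts 2.0.1, DESeq2, Bowtie2 2.4.5, Trim Galore 0.6.7 and SAMtools 1.15.1. The sources used here give neither their order, nor the genome build, nor the strand setting. Coordinates are the outer bounds of each gene in the deposited table. From it, 10 broken lines of 3 genes were left out. A RefSeq gene table of the species was used for names only and matched 50 of the 51 members.

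Counts were scaled by TMM and tested with edgeR 4.0.16 (glmQLFit and glmQLFTest, filterByExpr) in R 4.3.3, with all 7 libraries in 1 fit, two-sided, and a call at a Benjamini-Hochberg adjusted p under 0.05 over all 16374 genes tested. The SE of a log2 fold change is its size divided by the square root of the F statistic. CPM per kilobase used the length column of the table. Values after ± are SDs between libraries, and values per library stand in the order of their numbers. The script was tested on simulated data.

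Members and lists were chosen with earlier results of these data known. Genes with values in every library were the called members with at least 20 CPM in the higher group, at most 8 in each direction by size of change, and 12 further genes whatever their call (RAN, RCC1, the lamins, KPNA2, KPNA7, KPNB1, XPO1, TPR, RANBP2 and NUP210). Other members are examples of their role by smallest adjusted p. Values per library were added for some other members, whether or not their libraries split. Of the other lists, up to 3 called genes in each direction were named. Alternatives were other scalings, no filter, DESeq2 1.42.0, limma 3.58.1 voom, the newer edgeR fit, a replicate block, the 2 groups compared alone, and leaving out each library; unscaled library totals, a crossed block and a block by the numbers in the file labels were added after seeing the data. Only IVM MII 3 has replicate number 3, so the replicate block fits it alone and is close to leaving it out. Calls in both of these alternatives are therefore not separate support. The labels name no molecular identifiers, so PCR copies may count more than once and every interval or floor given covers counting error alone.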

Additional observations from a re-analysis of the deposited data

Results flagged for a closer look

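A row that the table names only by a locus identifier, LOC102140323, carries the symbol NUP210L in the RefSeq gene table and lies outside the rule for members. NUP210L is related to the membrane nucleoporin NUP210. It had 10 counts in IVO MII 2, 1 count in GV 2 and 0 counts in the other 5 libraries, and it is listed here because 10 counts in 1 library exceed the 3 counts that a count of 0 allows. The difference was not tested.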

How the results depend on the processing

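For the members called in IVM MII against IVO MII (0 higher, 0 lower), DESeq2 gave 3 higher, the replicate block gave 1 higher and 1 lower, and leaving out 1 library gave 0 to 1 higher and 0 to 1 lower. In IVO MII against GV (14 higher, 1 lower), the count of lower members was 3 with RLE factors, 4 with unscaled library totals, 5 with DESeq2, 4 with limma voom, 5 with the newer edgeR fit, 2 with the replicate block and 3 in a fit of the 2 groups alone; leaving out 1 library gave 7 to 15 higher and 0 to 3 lower. In IVM MII against GV (20 higher, 3 lower), unscaled totals gave 10 higher and 7 lower, DESeq2 gave 6 lower, the newer edgeR fit 5 lower and the replicate block 17 higher and 6 lower; leaving out 1 library gave 6 to 21 higher and 1 to 4 lower. In IVM MII against IVO MII, DESeq2 called 1224 of all genes higher and 786 lower, and the replicate block 782 and 456, beside 146 and 95 in the main fit. In IVO MII against GV, lower calls over all genes were 2204 in the main fit, 2391 with RLE factors and 3123 with unscaled totals. They were 3325 with DESeq2, 3443 with limma voom, 3440 with the newer edgeR fit and 2428 with the replicate block. A fit of the 2 groups alone gave 2931. In IVM MII against GV they were 2912 in the main fit, 4170 with unscaled totals, 3753 with DESeq2 and 4154 with the newer edgeR fit. With the replicate block they were 2834. The cause of these changes between alternatives was not tested, beyond the fewer samples of the fits that leave out a library. No called member reversed its direction in any alternative. Over all member values, 2185 stayed on their side of the threshold, 91 lost a call, 63 gained one and 103 uncalled values moved by more than their spread.

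No label says that replicate numbers mark a shared animal, batch or day. Deviations of same-numbered libraries correlated at 0.21 and -0.085 between IVM MII and IVO MII, at -0.083 and 0.069 between IVM MII and GV, and at -0.149 between IVO MII and GV. In the file labels IVO MII 2 has the number 3, and by those numbers its correlation with IVM MII 3 was 0.271, beside 0.21 for number 1. In a group of 2 libraries the deviations from the mean are mirror images, so these correlations are tied to each other and are not independent. With 2 such pairs, a pairing of the MII libraries was not established. A replicate block by the file numbers gave 0 higher and 0 lower in IVM MII against IVO MII, 14 and 4 in IVO MII against GV, and 21 and 7 in IVM MII against GV. A block with the GV numbers exchanged gave 1 and 3, 16 and 2, and 21 and 7 in the same order; the 3 lower members in IVM MII against IVO MII were NUP62, NUP88 and NUP214, and NUP153 was higher. Every call over GV without a block was kept in both. KPNA4, IPO4 and NUP62CL had 0 counts in some libraries, where depth limits what can be seen. For NUP62CL the libraries of a group also disagreed, with 0 to 42 counts in IVM MII. The groups of 2 and 3 libraries limit all members.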

Other observations

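Within the MII groups, 2 libraries stood out in the same genes. IVM MII 3 and IVO MII 2 were both the highest library of their group for 19 of the 51 members (37.25%, beside 26.93% of all genes tested) and both the lowest for 16 (31.37%, beside 22.92%). The first set holds KPNA7, NUP85, NUP88, NUP62, NUP214, TPR, XPO5 and LMNA. The second holds NUP37, NUP58, NUP107, RANBP2, TNPO1, IPO7, IPO8, KPNB1 and RAN. The file labels of both libraries carry the number 3, although the titles number the IVO MII library as 2, and all MII libraries are in 1 folder. What that number marks is not given in the sources used here, and its part in the split was not tested.

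Spread within a group was larger at MII than at GV. Over the 35 members with at least 20 CPM in a group, the median ratio of the highest to the lowest library was 1.68 in IVM MII, 1.55 in IVO MII and 1.18 in GV. The ratio passed 2 for 8 members in IVM MII, 10 in IVO MII and 0 in GV. The IVM MII value is over 3 libraries and the other values are over 2. The larger spread at MII was not particular to the members. Over all genes tested, the Spearman correlation of log CPM was 0.979 between the GV libraries. It was 0.926 to 0.951 among the IVM MII libraries and 0.918 between the IVO MII libraries.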
